A study of Mus musculus with 44 samples.

Results

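The unfolded protein and integrated stress genes described here are 10 mouse genes, taken by name for their known roles, out of 54146 genes counted, with earlier results of these data known. They are Hspa5, Xbp1, Dnajb9, Ddit3, Atf4, Atf3, Trib3, Asns, Chac1 and Sesn2. Their RNA was measured by bulk RNA sequencing in 44 libraries from primary astrocytes and primary microglia of mice. Cells of each type carried 1 of 4 APOE genotypes. WT cells are labelled as wild type for mouse Apoe and gave 6 libraries per cell type. APOE33 and APOE44 cells, labelled with the names of the human APOE3 and APOE4 alleles, gave 6 libraries each per cell type, and Apoe KO cells, labelled as knockout, gave 4. All cells were purified, cultured in media made for human astrocytes and microglia, and left untreated. The labels do not say from which strain, at what age or from how many animals the cells came, or how the alleles were made, so every p-value below measures the spread between libraries, which may be technical. All 12 WT libraries are tagged batch 2 and the 32 others batch 1, so wherever WT is compared, its genotype and its batch cannot be told apart.

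The unfolded protein response is set off when unfolded protein builds up in the endoplasmic reticulum (ER). Its sensors IRE1, ATF6 and PERK raise ER chaperones and degradation factors, IRE1 by splicing Xbp1 mRNA. PERK also phosphorylates the translation factor eIF2alpha, as GCN2 does on amino acid shortage, PKR on viral RNA and HRI on haem shortage or mitochondrial stress. This shared branch, the integrated stress response, slows bulk translation while favouring translation of Atf4, whose protein then switches on genes for amino acid supply and stress adaptation. Both responses are known to be engaged in glia in neurodegenerative disease. Counts of a gene's reads show neither the splicing of Xbp1 nor the translation of Atf4, so the values below are mRNA levels only.

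Total counts ran from 83239599 to 143150569 per library, and RNA integrity numbers from 8.9 to 10. Levels are given as CPM, a gene's count per 1000000 counts of its library. The mouse Apoe row stood at 6104 to 7759 CPM in WT astrocytes and 39026 to 50194 CPM in WT microglia, and at 5.99 to 66.7 CPM in all other libraries, so it parts WT from the rest. It was lowest in KO cells, at 11.2 to 15.3 CPM in astrocytes and 5.99 to 22.3 CPM in microglia. Astrocyte APOE33 replicate 1 carries a WT genotype tag against its title and source, and its batch tag is that of APOE33. It was kept as APOE33, and the counts of members called in the 6 comparisons that use it were the same without it. Summed over 12 fixed markers each, microglia markers reached 18320.1 to 21125 CPM in APOE33 microglia and 162 to 554 CPM in APOE33 astrocytes, and astrocyte markers 13348 to 18358 CPM in APOE33 astrocytes and 27.3 to 78.2 CPM in APOE33 microglia, so each label fits its markers. In bulk samples, fewer cells of a type and less RNA per cell cannot be told apart.

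Some of these promoters carry the short motifs by which the ER and amino acid branches are known to act, and the stretches that hold them are shown because they tell which members carry which motif. The windows searched run from 250 bases before to 50 bases after the start of each gene as RefSeq places it on GRCm38.p6, and all 10 members matched. The ER stress element was searched as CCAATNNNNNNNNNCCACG and the C/EBP-ATF composite element, which binds ATF4 with a partner, as TGATGNAA, both on either strand. The ER stress element occurred in Hspa5 alone among the members, 65 to 47 bases before the start, against 0.119% of 32851 windows. It also occurred in 6 of 20 windows of other ER chaperones and 0 of 40 of other integrated stress response targets, from lists used below. The composite element occurred in Asns, Chac1, Atf3 and Trib3, 4 of 10 members, against 3.97% of all windows. Among those same lists it occurred in 11 of 40 integrated stress response targets and 1 of 20 ER chaperones. The cAMP response element TGACGTCA occurred in 0 members against 1.79% of windows. A plain CCAAT, which the ER stress element contains, occurred in 7 of 10 members against 37.4% of windows. A match describes letters and is not evidence of binding, and a lack of one covers only these letters in these windows. The capitals below mark the ER stress element in Hspa5 (chr2:34771990-34772089 on the plus strand) and the composite element in Asns (chr6:7693210-7693289 on the minus strand), Chac1 (chr2:119351012-119351111 on the plus strand) and Atf3 (chr1:191183374-191183473 on the minus strand), all read 5′ to 3′ on the gene's strand.
Hspa5: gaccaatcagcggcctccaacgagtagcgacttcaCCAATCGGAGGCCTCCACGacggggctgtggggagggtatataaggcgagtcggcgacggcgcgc
Asns: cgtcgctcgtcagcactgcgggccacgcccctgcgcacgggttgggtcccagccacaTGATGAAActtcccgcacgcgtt
Chac1: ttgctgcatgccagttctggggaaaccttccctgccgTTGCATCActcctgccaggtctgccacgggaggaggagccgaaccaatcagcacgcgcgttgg
Atf3: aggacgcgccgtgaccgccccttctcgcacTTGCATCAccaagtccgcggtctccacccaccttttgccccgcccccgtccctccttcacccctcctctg
In Asns the element stood 23 to 16 bases before the start in the same direction as the gene. In Chac1 and Atf3 it read on the opposite strand, 193 to 186 and 110 to 103 bases before the start. In Trib3 it lay 14 to 21 bases after the start, again on the opposite strand. The GENCODE models of Hspa5, Asns, Chac1 and Atf3 begin further upstream than these RefSeq starts. The motifs shown for Hspa5, Asns and Atf3 thus lie inside the GENCODE genes, and that of Chac1 before its GENCODE start. For Atf3 the GENCODE start, at position 191218039, is far from the stretch shown, so that window is at an internal start of the gene as counted.

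The members lie on 8 chromosomes, given here by the identifiers of the count table and GENCODE M21 positions on GRCm38. On the ER side stand Hspa5 (ENSMUSG00000026864.13, chr2:34771970-34777547, plus strand), Xbp1 (ENSMUSG00000020484.18, chr11:5520659-5525893, plus strand) and Dnajb9 (ENSMUSG00000014905.4, chr12:44205559-44210326, minus strand). The transcription factors are Atf4 (ENSMUSG00000042406.8, chr15:80255184-80257541, plus strand), Ddit3 (ENSMUSG00000025408.15, chr10:127290774-127296288, plus strand) and Atf3 (ENSMUSG00000026628.13, chr1:191170296-191218039, minus strand). The downstream genes are Trib3 (ENSMUSG00000032715.9, chr2:152337422-152344032, minus strand), Asns (ENSMUSG00000029752.12, chr6:7675169-7693254, minus strand), Chac1 (ENSMUSG00000027313.3, chr2:119351229-119354381, plus strand) and Sesn2 (ENSMUSG00000028893.8, chr4:132492032-132510501, minus strand). The symbol Ddit3 has a second identifier, ENSMUSG00000116429.1, which had 0 counts in all 44 libraries. The 3′ end of Ddit3 overlaps Mars on the opposite strand by 68 bases, and the library kit named in the labels does not mark strand, so reads in that stretch cannot be assigned to either gene. All 10 members passed the filter on low counts in every fit.

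Per kilobase of exon, Hspa5, the main ER chaperone (BiP), was the most abundant member in both cell types, at 108 CPM per kb in WT astrocytes and 219.9 in WT microglia. In WT astrocytes it was followed by Dnajb9 at 30.3, Atf4 at 24.1 and Sesn2 at 19.3 CPM per kb, and Trib3 came last at 0.184. In WT microglia the next members were Atf3 at 135, Atf4 at 64.7 and Xbp1 at 44.9 CPM per kb, and Chac1 came last at 0.431. The order of the members thus differed between the cell types below the first place, with Atf3 next to last in astrocytes and just below Hspa5 in microglia.

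**Figure D1:**
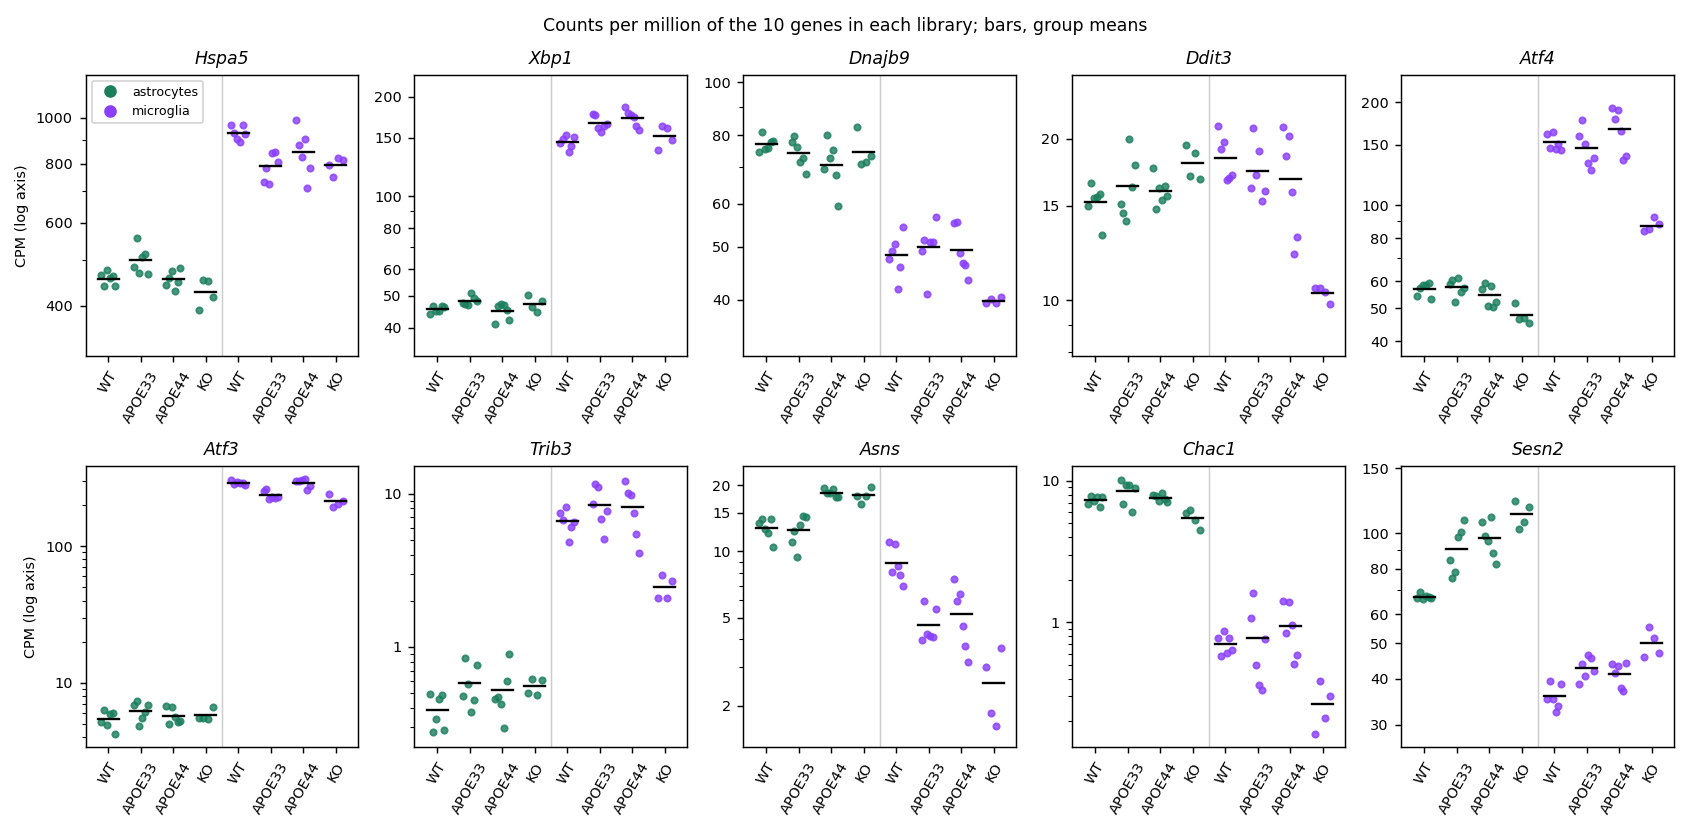
Levels of the 10 members in all 44 libraries, in CPM on a log axis, 1 panel per gene, with the 8 groups of cell type and genotype along the x axis, 1 point per library and a bar at each group mean. Atf3, Trib3, Xbp1, Atf4 and Hspa5 sit higher in microglia, Chac1 sits higher in astrocytes, and the KO microglia have the lowest mean of the microglia groups for Atf4, Ddit3, Atf3, Trib3, Asns, Chac1 and Dnajb9.

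The first comparison set microglia against astrocytes over the 32 libraries of batch 1. Of the members, 6 were higher in microglia and 4 lower, and 9 of 10 had groups of libraries that did not overlap in CPM, as 60.7% of all genes tested did. Over all 21647 genes tested 86.1% were called at adjusted p under 0.05, 37.8% higher and 48.4% lower, so a call here is the common case. Fold changes and p-values in this and the following comparisons are from edgeR's quasi-likelihood test with Benjamini-Hochberg adjustment over all genes, on the log2 scale with standard errors. TMM scaling, used for the main values, and plain library totals differed between the cell types: the median over all genes was -0.26 with TMM and -0.77 with totals, and 43.9% of calls were higher with TMM but 30.6% with totals. Both values are therefore given for each member.

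Atf3, a stress-induced transcription factor, showed the widest gap. It ranged from 4.87 to 7.39 CPM in APOE33 astrocytes and from 221 to 262 CPM in APOE33 microglia. The log2 difference, microglia over astrocytes, was 5.97 ± 0.09, adjusted p = 8.75e-29, and 5.45 with totals. Trib3, a pseudokinase that feeds back on ATF4 signalling, came next, at 0.377 to 0.853 CPM in APOE33 astrocytes and 5.08 to 11.6 CPM in APOE33 microglia. Its difference was 3.72 ± 0.25, adjusted p = 3.07e-14, and 3.21 with totals. Xbp1, the transcription factor activated by IRE1 splicing, had 46.9 to 50.9 CPM in APOE33 astrocytes and 157 to 176 CPM in APOE33 microglia, a difference of 2.27 ± 0.04 (1.76 with totals). Atf4 followed with 1.71 ± 0.07 (1.19 with totals) and Hspa5 with 1.34 ± 0.06 (0.82 with totals), each with non-overlapping libraries.

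Chac1, which breaks down glutathione, went the other way. APOE33 astrocytes held 6.07 to 10.2 CPM and APOE33 microglia 0.332 to 1.61 CPM, and the difference was -3.21 ± 0.28, adjusted p = 1.83e-11, or -3.71 with totals. Asns, which makes asparagine, was lower in microglia at -1.59 ± 0.17 (-2.11 with totals), and Sesn2, a leucine-sensing brake on mTORC1, at -0.65 ± 0.08 (-1.17 with totals). Dnajb9, an ER co-chaperone of Hspa5 also called ERdj4, was slightly lower at -0.19 ± 0.06, adjusted p = 0.00551 (-0.71 with totals). Ddit3, which encodes the transcription factor CHOP, had overlapping libraries, and its sign turned with the scaling, from 0.29 ± 0.10, adjusted p = 0.00845 with TMM to -0.22 with adjusted p = 0.0462 with totals. The members therefore did not move as one set between the cell types: targets of ATF4 stood on both sides.

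In the 12 WT libraries, which share none with batch 1, 9 of 10 members were called, 6 higher and 3 lower in microglia, where 89.5% of 19331 genes were called (41.6% higher, 47.9% lower; 46.5% of calls were higher with TMM and 33.6% with totals). The log2 differences were 6.23 ± 0.09 for Atf3, 4.57 ± 0.17 for Trib3, 2.17 ± 0.03 for Xbp1, 1.91 ± 0.03 for Atf4 and 1.52 ± 0.04 for Hspa5. For Chac1 the difference was -2.88 ± 0.10, for Sesn2 -0.41 ± 0.04 and for Dnajb9 -0.19 ± 0.05. Ddit3 stood at 0.76 ± 0.06, adjusted p = 3.02e-08 (0.27 with totals). Asns was the exception, with 10.5 to 14.03 CPM in astrocytes and 6.97 to 11.03 CPM in microglia. Its difference was -0.05 ± 0.10, adjusted p = 0.618 with TMM and -0.54, adjusted p = 0.000193, with totals. In plain CPM, which is scaling by totals, the microglia level of Asns was 69.4% of the astrocyte level in WT, 37.2% in APOE33, 28.3% in APOE44 and 14.1% in KO. These shares hold for that scaling only, since the WT difference with TMM was -0.05. The step from WT to the other genotypes is also a step between batches.

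**Figure D2:**
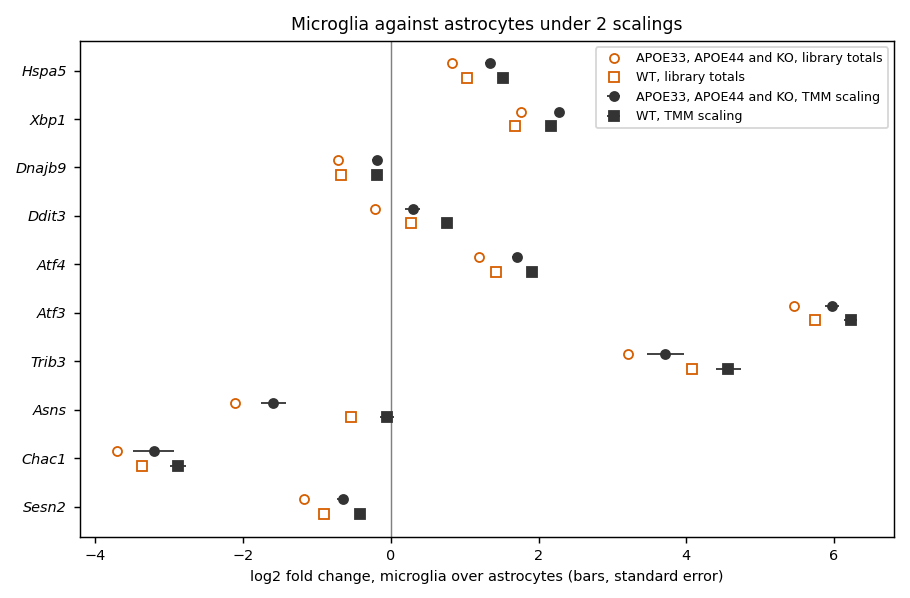
Log2 fold change of microglia over astrocytes (x axis) for each member (y axis), in batch 1 (circles) and in WT libraries (squares), with TMM scaling (filled, bars are standard errors) and with library totals (open). Atf3 and Trib3 lie far to the right and Chac1 far to the left under both scalings, and Ddit3 in batch 1 lies on either side of 0.

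The level of each cell type's markers in the other was set beside these values. In astrocytes the summed microglia markers stood at 1.46% of their microglia level in APOE33, 1.40% in APOE44, 2.22% in KO and 2.38% in WT. The astrocyte level of Atf3 was 2.65%, 1.97%, 2.72% and 1.87% of its microglia level in the same genotypes, and that of Trib3 was 6.89%, 6.41%, 22.5% and 5.89%. The astrocyte share of Atf3 was thus close to that of the microglia markers, and the share of Trib3 was above it. In microglia, the astrocyte markers stood at 0.259% of their astrocyte level in APOE33 and 0.624% in KO, while Chac1 stood at 9.13% and 4.83%. The part of other cells in these low levels was not tested.

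KO microglia lay below both other batch 1 genotypes, without overlap, in Atf4, Ddit3 and Trib3 of the ATF4 branch. The share of all genes without overlap was not counted between genotypes, so here and below a lack of overlap only describes the gene named. Against APOE33 microglia, 7 of 10 members were called, 6 lower and 1 higher, where 22.7% of 17143 genes were called, 10.9% higher and 11.9% lower. Against APOE44 microglia 8 were called, 7 lower and 1 higher, where 26.9% of genes were called, 13.6% higher and 13.4% lower. The median log2 change of the 10 members was -0.47 against APOE33, beside -0.02 over all genes, and -0.50 against APOE44, beside -0.01. With totals in place of TMM the calls over all genes leaned lower, from 47.8% to 29.9% higher against APOE33 and from 50.4% to 32.5% against APOE44. Both comparisons use the same 4 KO libraries, so their values are given side by side. The KO group holds 1 female and 3 male libraries, the APOE33 group 4 and 2, and sex was a term in every fit.

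Atf4 RNA was 83.9, 85.1, 92.1 and 87.9 CPM in the 4 KO microglia libraries. In APOE33 microglia it ran from 126 to 178 CPM with a median of 144, and in APOE44 microglia from 135 to 193 CPM with a median of 172. All KO libraries thus lay below all others. The log2 change was -0.70 ± 0.11, adjusted p = 0.000365 against APOE33, a fold of 0.615, and -0.87 ± 0.11, adjusted p = 4.18e-05 against APOE44. WT microglia, of batch 2, held 145 to 164 CPM, also above the KO range.

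Ddit3, the CHOP gene and a target of ATF4, stood at 10.5, 10.5, 10.3 and 9.83 CPM in KO microglia. APOE33 libraries ran from 15.3 to 20.9 CPM with a median of 16.6 and APOE44 libraries from 12.2 to 21.1 CPM with a median of 17.3. No KO library reached the range of either group. Its change was -0.69 ± 0.14, adjusted p = 0.00304 against APOE33, and -0.64 ± 0.14, adjusted p = 0.00329 against APOE44. Mars, which shares 68 bases with Ddit3 and is itself an ATF4 target, fell by 0.31 ± 0.06 against APOE33 with adjusted p = 0.000931.

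Trib3, induced by ATF4 and CHOP together, showed the steepest change of the 10 against APOE33. KO microglia held 2.08, 2.96, 2.08 and 2.70 CPM, from 204 to 294 counts. APOE33 microglia ran from 5.08 to 11.6 CPM with a median of 8.14 and APOE44 microglia from 4.09 to 12.1 CPM with a median of 8.62. The groups did not overlap, and the log2 change was -1.83 ± 0.30, adjusted p = 0.000609 against APOE33, a fold of 0.281, and -1.73 ± 0.29, adjusted p = 0.000598 against APOE44.

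Asns, whose promoter carries the composite element shown above, stood at 3.0, 1.85, 1.62 and 3.65 CPM in KO microglia. It ran from 3.96 to 5.97 CPM with a median of 4.18 in APOE33 and from 3.14 to 7.53 CPM with a median of 5.28 in APOE44. KO lay below APOE33 without overlap and overlapped APOE44. The change was -0.84 ± 0.28, adjusted p = 0.0411 against APOE33 and -0.98 ± 0.27, adjusted p = 0.0141 against APOE44. The first call rests on single libraries: it was lost, at adjusted p from 0.0506 to 0.115, without any 1 of APOE33 replicates 2 to 6 or KO replicates 2 and 3, and at 0.101 without the filter on low counts.

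Chac1 was near the limit of what the depth resolves in microglia, with 16 to 38 counts per KO library. KO levels were 0.163, 0.383, 0.212 and 0.300 CPM, APOE33 ran from 0.332 to 1.61 CPM with a median of 0.633 and APOE44 from 0.503 to 1.42 CPM with a median of 0.893. The change was -1.58 ± 0.49, adjusted p = 0.0291 against APOE33, with overlapping libraries, and -1.83 ± 0.46, adjusted p = 0.00807 against APOE44, without overlap. The APOE33 call was lost without KO replicate 1, 3 or 4, at adjusted p = 0.128, 0.0761 and 0.055.

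Sesn2 was the member that moved up. KO microglia held 45.9, 55.5, 51.8 and 47.1 CPM, against 38.8 to 46.4 CPM with a median of 42.9 in APOE33 and 37.1 to 44.2 CPM with a median of 42.5 in APOE44. It overlapped APOE33 but not APOE44. The change was 0.29 ± 0.07, adjusted p = 0.00649 against APOE33 and 0.35 ± 0.07, adjusted p = 0.00117 against APOE44. Sesn2 is known to be induced by p53 and NRF2 as well as by ATF4. Of 19 p53 target genes tested in the same contrast 6 rose and 2 fell, and of 15 NRF2 antioxidant genes 2 rose and 1 fell, beside the 10.9% of all genes that rose and 11.9% that fell. Without KO replicate 1 these counts were 5 and 0 of the p53 targets and 1 and 1 of the NRF2 genes, and without APOE33 replicate 3 1 p53 target fell. The part of p53, NRF2 or ATF4 in the rise of Sesn2 was not tested.

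On the ER side of the set, Hspa5 stood at 796, 749, 822 and 813 CPM in KO microglia, within the APOE33 range of 726 to 847 CPM and the APOE44 range of 711 to 989 CPM. Its change was 0.10 ± 0.09, adjusted p = 0.469 against APOE33 and -0.01 ± 0.08, adjusted p = 0.942 against APOE44. Xbp1 ran from 138 to 163 CPM in KO and from 157 to 176 CPM in APOE33, with a change of -0.07 ± 0.05, adjusted p = 0.32. Against APOE44 the change of Xbp1 was -0.12 ± 0.05, adjusted p = 0.0724. Neither gene passed the test with edgeR as reported. Against APOE44 Xbp1 was called lower with DESeq2, at -0.12 with adjusted p = 0.0445, with totals, at -0.19 with adjusted p = 0.021, in the fit on all 22 microglia libraries, at -0.12 with adjusted p = 0.0479, and without APOE44 replicate 5 or 6, at -0.15 with adjusted p = 0.0385 and -0.14 with adjusted p = 0.0457. Dnajb9, at 39.5, 40.1, 39.4 and 40.5 CPM in KO, lay just below the APOE33 range of 40.9 to 56.6 CPM and the APOE44 range of 43.4 to 55.5 CPM. Its change was -0.26 ± 0.08, adjusted p = 0.0289 against APOE33 and -0.23 ± 0.08, adjusted p = 0.0329 against APOE44. The first was lost without APOE33 replicate 6 or any 1 KO library, at adjusted p from 0.0582 to 0.105, and the second without APOE44 replicate 1 or 2 or any 1 KO library, at 0.0593 to 0.0902.

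In batch 1 Atf3 had its highest median in APOE44 microglia. It stood at 242, 192, 202 and 214 CPM in KO, from 221 to 262 CPM with a median of 229 in APOE33 and from 257 to 309 CPM with a median of 300.4 in APOE44. KO against APOE33 gave -0.03 ± 0.07, adjusted p = 0.769, and KO against APOE44 gave -0.36 ± 0.07, adjusted p = 0.000938, without overlap. The calls of Atf4, Ddit3, Trib3 and Sesn2 in KO against APOE33 held in every alternative run, with adjusted p up to 0.00288, 0.0115, 0.00438 and 0.0423. Without KO replicate 3 the number of members called fell from 7 to 4.

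**Figure D3:**
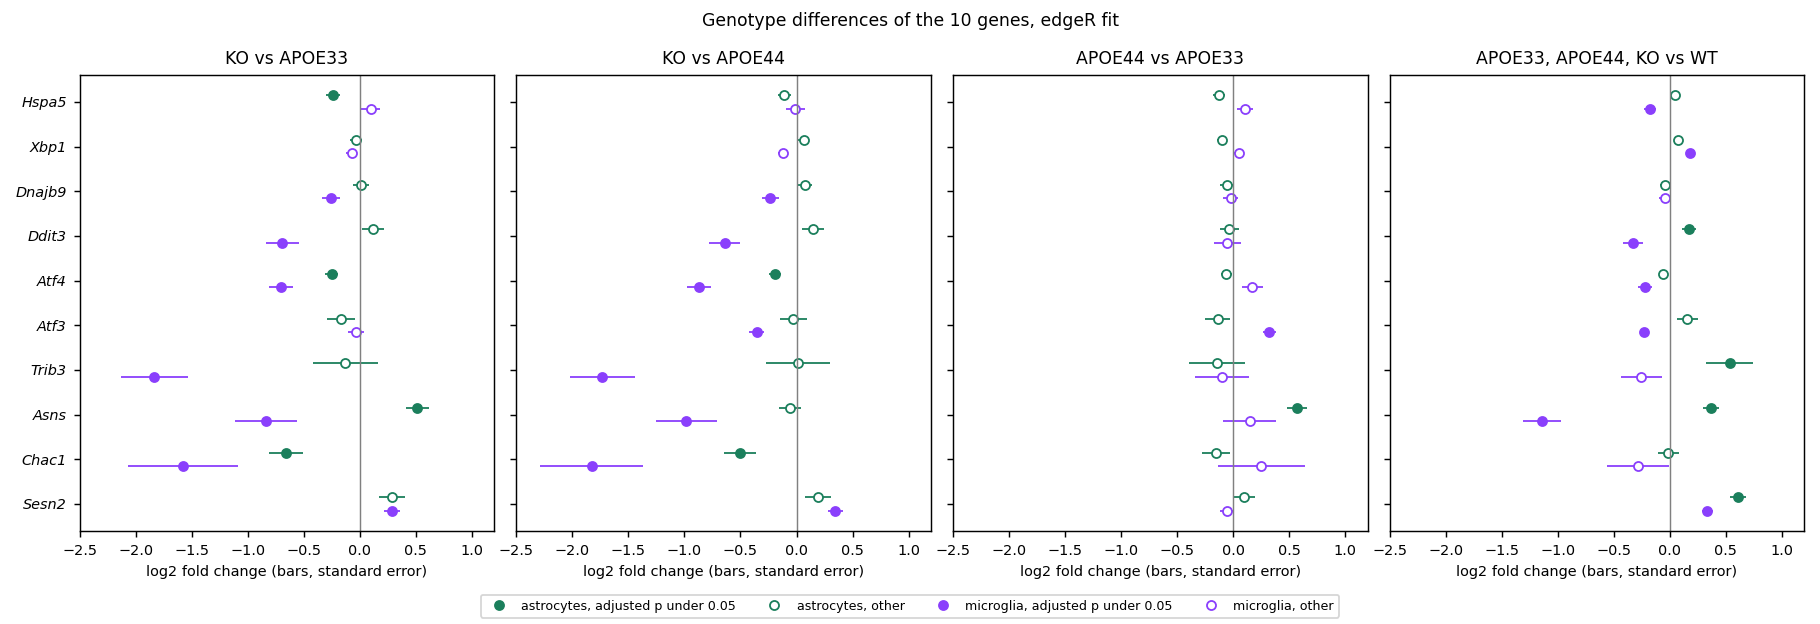
Log2 fold change (x axis, bars are standard errors) of each member (y axis) in 4 comparisons, 1 panel each, with astrocytes in green, microglia in purple and filled points for adjusted p under 0.05. In both panels of KO the microglia points of Trib3, Chac1, Asns, Atf4 and Ddit3 lie left of 0 and that of Sesn2 right of 0; for APOE44 against APOE33 the filled points are Asns in astrocytes and Atf3 in microglia.

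In astrocytes, 4 of 10 members were called in KO against APOE33, 1 higher and 3 lower, where 17.2% of 20481 genes were called, 8.37% higher and 8.83% lower. The median over the members was -0.08, beside 0.00 over all genes. Asns was 17.9, 16.4, 17.9 and 19.6 CPM in KO and from 9.42 to 14.5 CPM with a median of 12.8 in APOE33, without overlap. Its change was 0.51 ± 0.10, adjusted p = 0.00403. It rose in KO astrocytes and fell in KO microglia.

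Hspa5 stood at 391, 453, 451 and 418 CPM in KO astrocytes and from 467 to 556 CPM with a median of 495 in APOE33, again without overlap. The change was -0.24 ± 0.06, adjusted p = 0.0167, and without KO replicate 1, the female library, it was -0.16 with adjusted p = 0.127. Atf4 was 51.9, 46.6, 46.98 and 45.3 CPM in KO and from 52.1 to 61.3 CPM with a median of 58.3 in APOE33. All KO libraries lay below all APOE33 libraries, and the change was -0.25 ± 0.06, adjusted p = 0.00827. Chac1 was 5.95, 6.21, 5.26 and 4.50 CPM in KO and from 6.07 to 10.2 CPM with a median of 9.11 in APOE33. These overlapped, with a change of -0.66 ± 0.15, adjusted p = 0.00772. Sesn2 ran from 102 to 122 CPM in KO and from 75.5 to 109 CPM in APOE33, and its change of 0.29 ± 0.12, adjusted p = 0.103, did not pass the test. Sesn2 was called in the fit on all 22 astrocyte libraries, at 0.29 with adjusted p = 0.042, and without APOE33 replicate 6, at 0.39 with adjusted p = 0.0354. The changes of the other 5 members ran from -0.17 to 0.12, and none of them was called.

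Against APOE44 astrocytes 2 members were called, both lower, where 22.7% of genes were called, 11.0% higher and 11.8% lower. Chac1 changed by -0.50 ± 0.14, adjusted p = 0.0204, with the KO libraries all below the APOE44 range of 7.10 to 8.20 CPM. Atf4 changed by -0.19 ± 0.06, adjusted p = 0.0212, with libraries that overlapped the APOE44 range of 50.5 to 59.2 CPM. Leaving out 1 library changed this count: 1 member was called without APOE44 replicate 1 or KO replicate 3, and 0 without KO replicate 4. Asns did not pass the test here, at -0.06 ± 0.10, adjusted p = 0.714. The changes of the other 7 members ran from -0.11 to 0.19.

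Whether the KO change differed between the cell types was tested directly with an interaction term over the 32 libraries of batch 1. It differed for 4 of 10 members, all lower in microglia, where 12.7% of genes were called, 6.18% higher and 6.55% lower. With totals the share of higher calls over all genes went from 48.6% to 27.3%. The difference between the log2 changes, microglia minus astrocytes, was -1.71 ± 0.42, adjusted p = 0.00648 for Trib3. Asns gave -1.35 ± 0.30, adjusted p = 0.00327, Ddit3 -0.81 ± 0.18, adjusted p = 0.00302, and Atf4 -0.46 ± 0.13, adjusted p = 0.0151. All 4 calls held in every alternative run, with adjusted p up to 0.0161, 0.00927, 0.0158 and 0.0419. Hspa5 leaned the other way at 0.33 ± 0.11, adjusted p = 0.0522, which did not pass. It was called with DESeq2, at 0.34 with adjusted p = 0.0223, without the sex term, at 0.31 with adjusted p = 0.0365, and on leaving out any 1 of 7 libraries. Dnajb9, at -0.27 ± 0.11, adjusted p = 0.111, was called with totals, at -0.37 with adjusted p = 0.0325, and without microglia APOE33 replicate 3, at -0.34 with adjusted p = 0.0336. Chac1 gave -0.91 ± 0.50, adjusted p = 0.252. In astrocytes Trib3 held 0.502, 0.615, 0.483 and 0.611 CPM in KO and 0.377 to 0.853 CPM in APOE33, and Ddit3 19.4, 17.1, 18.8 and 16.9 CPM in KO and 14.1 to 20.01 CPM in APOE33. Neither passed the test there.

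APOE44 against APOE33, the contrast of the human allele names, moved 1 member in each cell type, and not the same one. In astrocytes it was Asns, where 0.703% of genes were called, 0.42% higher and 0.283% lower. Asns ran from 9.42 to 14.5 CPM with a median of 12.8 in APOE33 astrocytes and from 17.7 to 19.4 CPM with a median of 18.4 in APOE44 astrocytes. Every APOE44 library lay above every APOE33 library. The log2 change was 0.57 ± 0.09, adjusted p = 0.00311, a fold of 1.48, and it held in every alternative run with adjusted p up to 0.029. WT astrocytes, of batch 2, stood at 12.8 ± 1.34 CPM (SD, n = 6), near APOE33 at 12.5 ± 1.98, and KO at 17.9 ± 1.29 (SD, n = 4), near APOE44 at 18.5 ± 0.727. Without the library whose genotype tag differs, the change was 0.54 with adjusted p = 0.0102. In microglia Asns gave 0.15 ± 0.24, adjusted p = 0.848.

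Genes next to Asns on chromosome 6 also differed between APOE44 and APOE33. These genes were looked up after the Asns result was seen. In astrocytes 4 of the 10 other genes tested within 1 Mb were called, where 0.703% of all genes were, and 6 of 41 within 5 Mb. Rpa3, a subunit of a protein that binds single-stranded DNA, gave -0.87 ± 0.07, adjusted p = 2.41e-06. Mios, part of an activator of mTORC1, gave -0.29 ± 0.06, adjusted p = 0.0339. Umad1 gave -0.36 ± 0.07, adjusted p = 0.0178 and Gm43961 -1.86 ± 0.34, adjusted p = 0.0131. All 4 were lower in APOE44, opposite to Asns. In microglia 2 of 11 were called within 1 Mb and 6 of 39 within 5 Mb, where 0.84% of all genes were. The 2 within 1 Mb were Mios at -0.36 ± 0.07, adjusted p = 0.0262 and Ica1 at 2.90 ± 0.20, adjusted p = 4.65e-07. In KO against APOE33, 1 of 10 neighbours within 1 Mb was called in astrocytes and 0 of 11 in microglia, where 17.2% and 22.7% of all genes were. Against APOE44, KO had 6 of 10 called in astrocytes and 3 of 11 in microglia, where 22.7% and 26.9% of all genes were. Asns itself was called in that contrast in microglia and not in astrocytes. Among the other 9 members, 0 to 1 neighbour within 1 Mb was called in APOE44 against APOE33 in either cell type. Whether the genomes of the lines differ around Asns was not tested.

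In microglia the member called was Atf3, where 0.84% of genes were called, 0.379% higher and 0.461% lower. It ran from 221 to 262 CPM with a median of 229 in APOE33 and from 257 to 309 CPM with a median of 300.4 in APOE44. The upper end of the APOE33 range overlapped the lower end of the APOE44 range. The change was 0.32 ± 0.06, adjusted p = 0.0117, a fold of 1.25, and its adjusted p reached 0.0494 over the alternatives. WT microglia, of batch 2, held 279.9 to 303 CPM, within the APOE44 range. Whether either effect differs between the cell types was tested with the interaction term, by which 0 members were called in edgeR, where 0.296% of genes were called and 2463 of 21647 genes had an unadjusted p under 0.05. DESeq2 called 1, Atf3, at adjusted p = 0.0245, beside 0.46 ± 0.12, adjusted p = 0.105 in edgeR. It was called in edgeR as well without astrocyte APOE33 replicate 3, at 0.56 with adjusted p = 0.012, or without microglia APOE33 replicate 2, at 0.47 with adjusted p = 0.0485. The changes of the 9 members other than Asns in astrocytes ran from -0.16 to 0.096, and those of the 9 other than Atf3 in microglia from -0.099 to 0.25.

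Against WT, the mean of the 3 other genotypes was set beside the WT libraries of the other batch. In astrocytes 4 of 10 members were higher and 0 lower, where 45.9% of 21287 genes were called, 22.3% higher and 23.5% lower. Sesn2 ran from 65.97 to 68.9 CPM with a median of 66.7 in WT and reached 75.5 to 109 CPM in APOE33, 82.3 to 111 in APOE44 and 102 to 122 in KO. No other library fell within the WT range, and the change was 0.61 ± 0.07, adjusted p = 1.38e-06. Asns gave 0.37 ± 0.07, adjusted p = 0.000268, although its APOE33 libraries lay around the WT level. Trib3 gave 0.53 ± 0.21, adjusted p = 0.0414, and Ddit3 0.17 ± 0.07, adjusted p = 0.0394. The other 6 members ran from -0.061 to 0.16 and were not called. With totals Atf4 was called lower, at -0.097 with adjusted p = 0.032, and Xbp1, at 0.08 ± 0.03, was called higher on leaving out any 1 of 5 libraries, with adjusted p from 0.0284 to 0.0493. The calls of Trib3 and Ddit3 were lost with library totals, at adjusted p = 0.0605 and 0.0915, and on leaving out any 1 of 9 libraries each. The count fell to 2 without WT replicate 3 or 6 or APOE33 replicate 6.

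In microglia 7 of 10 members differed from WT, 2 higher and 5 lower, where 49.7% of 18079 genes were called, 23.9% higher and 25.8% lower. Asns moved most, from 6.97 to 11.03 CPM with a median of 8.32 in WT to means of 4.65 ± 0.861 CPM in APOE33, 5.23 ± 1.69 in APOE44 (SD, n = 6 each) and 2.53 ± 0.959 in KO (SD, n = 4). Its change was -1.14 ± 0.17, adjusted p = 1.39e-05. Sesn2 was higher by 0.33 ± 0.05, adjusted p = 1.13e-05, and Xbp1 by 0.18 ± 0.03, adjusted p = 9.65e-05. Xbp1 ranged from 136 to 152 CPM in WT, from 157 to 176 in APOE33 and from 158 to 186 in APOE44, while KO overlapped WT. Hspa5 was lower at -0.18 ± 0.05, adjusted p = 0.00937, with a range of 890.0 to 968 CPM with a median of 928 in WT. The changes of Dnajb9, Trib3 and Chac1, which did not pass, were -0.04, -0.25 and -0.28. Atf3 gave -0.23 ± 0.04, adjusted p = 0.000124, Ddit3 -0.33 ± 0.09, adjusted p = 0.00468 and Atf4 -0.22 ± 0.07, adjusted p = 0.00775. For none of the 10 did the WT libraries lie apart from all others, and for Atf4 and Ddit3 the APOE33 and APOE44 ranges overlapped the WT range while KO lay below it. Batch and genotype cannot be told apart in any of these values.

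Other genes of the pathway were taken from lists of known members, and were counted list by list in KO against APOE33. Of 38 further integrated stress response targets tested in microglia, 16 fell and 1 rose, where 11.9% of all genes fell and 10.9% rose, with a median of -0.19, beside -0.02 over all genes (0 up and 20 down with totals). Slc38a2, a neutral amino acid transporter, fell by 0.75 ± 0.09, adjusted p = 3.61e-05, at 83.8 ± 6.41 against 144 ± 12.9 CPM (KO against APOE33, SD). Psat1, of serine synthesis, changed by -0.92 ± 0.13, adjusted p = 0.000193. Aars, an alanyl-tRNA synthetase, changed by -0.30 ± 0.05, adjusted p = 0.000733. The 1 that rose was Slc7a3, a cationic amino acid transporter, at 0.88 ± 0.30 with adjusted p = 0.0419, named after its value was seen, and its call was lost on leaving out any 1 of 8 libraries. In astrocytes 6 of 39 fell and 0 rose, where 8.83% of all genes fell and 8.37% rose, with a median of -0.06. Among them Slc38a2 changed by -0.56 ± 0.06, adjusted p = 6.42e-05, Phgdh, the first enzyme of serine synthesis, by -0.78 ± 0.11, adjusted p = 0.00042, and Psat1 by -0.56 ± 0.12, adjusted p = 0.005. The interaction term called 6 of this list lower in microglia and 1 higher (12 and 1 with totals), where it called 6.55% of all genes lower and 6.18% higher.

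The counts of the next 2 lists stand beside 10.9% of all genes higher and 11.9% lower in KO microglia, and 8.37% and 8.83% in KO astrocytes. Upstream of Atf4, the list of eIF2alpha kinases, phosphatase subunits and eIF2B had 18 genes tested. In KO microglia 3 of these rose and 6 fell. Ppp1r15a, the stress-induced phosphatase subunit GADD34 and itself an ATF4 target, changed by -1.32 ± 0.18, adjusted p = 0.000169, at 15.05 ± 0.858 against 38.6 ± 9.18 CPM. Eif2b4, of the exchange factor that phosphorylated eIF2alpha inhibits, changed by -0.38 ± 0.04, adjusted p = 3.11e-05, and Eif2s2, the beta subunit of eIF2, by 0.33 ± 0.05, adjusted p = 0.000173. In KO astrocytes 1 rose and 5 fell, led by Eif2b2 at -0.45 ± 0.06, adjusted p = 0.00042. That count was 2 lower without APOE33 replicate 1 or KO replicate 1, 3 or 4, and 3 lower without APOE33 replicate 3, 4 or 6 or KO replicate 2. Of 11 sensors and activating enzymes, 2 rose and 4 fell in KO microglia, and with totals 0 rose and 6 fell. Without APOE33 replicate 6 or KO replicate 1, 1 of them rose. Traf2, an adaptor of IRE1, changed by -0.43 ± 0.07, adjusted p = 0.000316. In KO astrocytes 3 rose and 0 fell, with 0 higher without KO replicate 1 and 1 higher without KO replicate 2 or 3 or APOE33 replicate 2, 3 or 6.

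Of 21 ER chaperones and folding enzymes tested, 8 rose and 1 fell in KO microglia (6 and 1 with totals), with a median of 0.11. Over all genes 10.9% rose and 11.9% fell. Pdia6, a disulfide isomerase, rose by 0.30 ± 0.05, adjusted p = 0.000525, at 203 ± 5.17 against 174 ± 4.02 CPM. Canx, the lectin chaperone calnexin, rose by 0.31 ± 0.05, adjusted p = 0.000773, and Hyou1, a large chaperone of the Hsp70 family, by 0.27 ± 0.06, adjusted p = 0.00253. The 1 chaperone that fell was Ppib, at -0.17 ± 0.05 with adjusted p = 0.0161, named after its value was seen, and its call was lost without KO replicate 2. In KO astrocytes 2 rose and 4 fell, with a median of -0.09, where 8.37% of all genes rose and 8.83% fell. Dnajb11, a co-chaperone of Hspa5, changed by -0.32 ± 0.06, adjusted p = 0.00184, Calr, calreticulin, by -0.32 ± 0.06, adjusted p = 0.00426, and Ero1l, an ER oxidase, by 0.34 ± 0.08, adjusted p = 0.00788. Without KO replicate 1 the astrocyte count was 1 higher and 2 lower, and without KO replicate 3 or 4 or APOE33 replicate 3 it was 2 lower. By the interaction term 8 of 21 chaperones were called higher in microglia and 0 lower (7 and 0 with totals), and the median difference was 0.22. The term called 6.18% of all genes higher and 6.55% lower. Hspa5 stood on the same side of 0 as these 8 chaperones, short of the threshold.

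Of 26 genes of ER-associated degradation and translocation, 10 fell and 0 rose in KO microglia, where 11.9% of all genes fell and 10.9% rose. In KO astrocytes 8 fell and 0 rose, where 8.83% of all genes fell and 8.37% rose. In microglia Herpud1, a membrane component of the degradation complex that ATF4 also induces, changed by -0.78 ± 0.10, adjusted p = 9.22e-05, at 38.7 ± 3.48 against 69.7 ± 10.7 CPM. Ube2j1, a membrane-bound ubiquitin-conjugating enzyme, changed by -0.39 ± 0.04, adjusted p = 2.59e-05. The microglia count lower was 5 without KO replicate 2 and 6 without KO replicate 3 or 4, with up to 2 higher on leaving out 1 library, and the astrocyte count 5 without KO replicate 1.

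**Figure D4:**
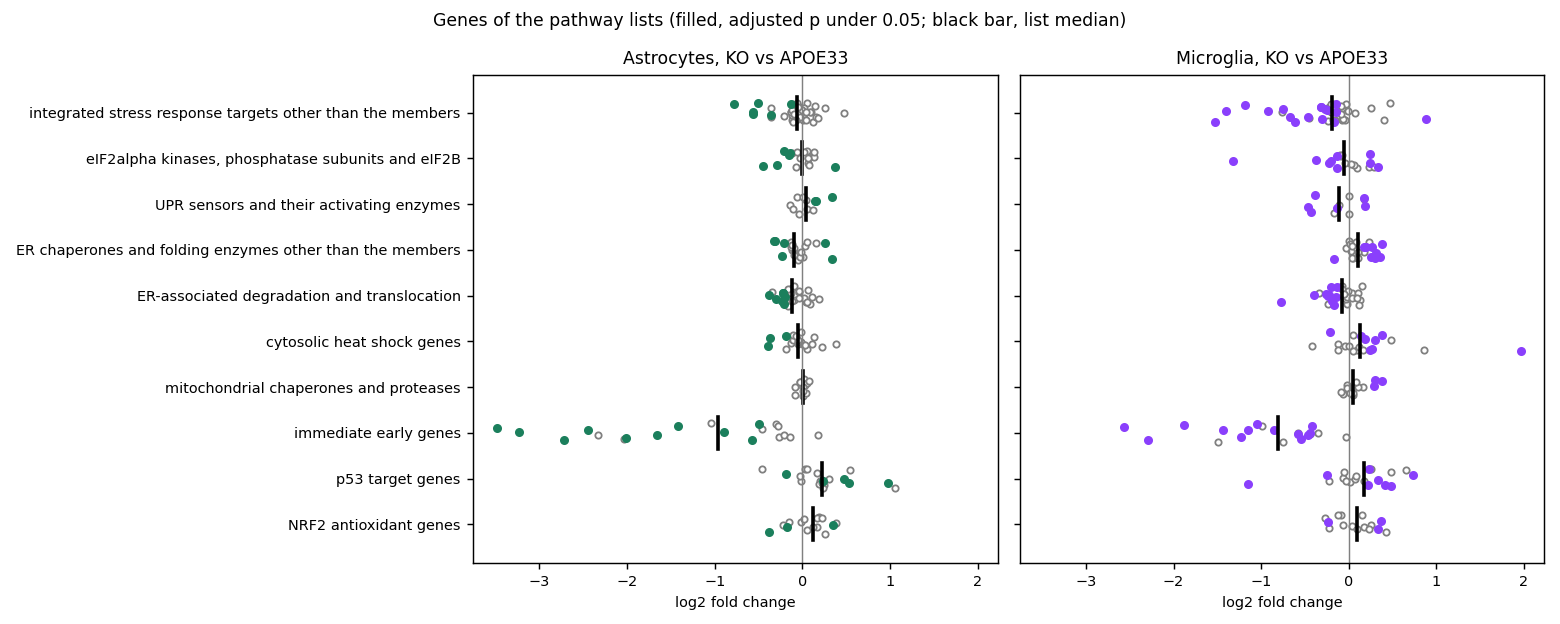
Log2 fold change in KO against APOE33 (x axis) of every tested gene of the 10 pathway lists (y axis), astrocytes on the left and microglia on the right; 1 point per gene, filled for adjusted p under 0.05, and a black bar at the list median. In microglia the filled points of integrated stress response targets lie mostly left of 0 and those of ER chaperones mostly right of 0, and immediate early genes lie left of 0 in both cell types.

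Other lists were counted beside these, again where 11.9% of all genes fell and 10.9% rose in KO microglia, and 8.83% and 8.37% in KO astrocytes. Of 20 immediate early genes, which respond within minutes to handling or stimulation, 13 fell and 0 rose in KO microglia, with a median of -0.80, and 10 fell and 0 rose in KO astrocytes, with a median of -0.97. In microglia Klf4 changed by -2.29 ± 0.30, adjusted p = 8.89e-05, Dusp1 by -2.56 ± 0.39, adjusted p = 0.000421, and Fos by -1.23 ± 0.19, adjusted p = 0.00043. In astrocytes Egr1 stood at 10.02 ± 1.10 against 131 ± 94.3 CPM, and Zfp36 changed by -1.66 ± 0.16, adjusted p = 3.97e-05. Without KO replicate 1 the astrocyte count was 6. Atf3 is often counted among the early genes. It did not pass the test in KO against APOE33 in either cell type. Against APOE44, Atf3 was called lower in KO microglia and was not called in KO astrocytes. There 15 of 20 early genes fell and 0 rose in microglia (9 fell without KO replicate 1), where 13.4% of all genes fell and 13.6% rose. In astrocytes 12 fell and 1 rose, where 11.8% of all genes fell and 11.0% rose. The part of this general fall in early genes in the lower Atf4, Ddit3 and Trib3 was not tested.

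For the next lists, too, 10.9% of all genes rose and 11.9% fell in KO microglia, and 8.37% rose and 8.83% fell in KO astrocytes. The list of cytosolic heat shock genes also holds Hspe1 and Hspd1, which are mitochondrial chaperones and both rose in KO microglia. With them, the list gave 7 higher and 1 lower of 20 in KO microglia (4 and 2 with totals), and 3 lower and 0 higher in KO astrocytes. The microglia count was 4 higher without APOE33 replicate 3 and 3 without KO replicate 1. Hspe1 rose by 0.29 ± 0.05, adjusted p = 0.000487, and Dnajb1 changed by -0.21 ± 0.04, adjusted p = 0.00066. Mitochondrial chaperones and proteases gave 3 higher and 0 lower of 13 in KO microglia, among them Hspe1 and Hspd1, which are in both lists, and 0 either way in astrocytes. Among p53 targets, Zmat3 rose by 0.48 ± 0.08, adjusted p = 0.000515 in KO microglia and Phlda3 by 0.73 ± 0.13, adjusted p = 0.00126. In APOE44 against APOE33 no list had a call in astrocytes in edgeR, where 2029 of 20481 genes had an unadjusted p under 0.05. In microglia Nupr1, a stress-induced integrated stress response target, changed by -0.44 ± 0.10, adjusted p = 0.0491, the early gene Klf6 by 0.54 ± 0.11, adjusted p = 0.0374 and the p53 target Bbc3 by -0.34 ± 0.07, adjusted p = 0.0328, and the lists held no other call. These 3 lists held 0 calls on leaving out any 1 of 9, 8 and 7 libraries.

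Markers of these and other cells were set beside the KO values as well. In KO against APOE33, 10.9% of all genes rose and 11.9% fell in microglia, and 8.37% rose and 8.83% fell in astrocytes. Astrocyte markers summed to 74.99 to 105 CPM in KO microglia and 27.3 to 78.2 CPM in APOE33 microglia, with none of the 12 at 0 in either group. Microglia markers summed to 16147 to 17019.6 CPM in KO and 18320.1 to 21125 CPM in APOE33 microglia, without overlap, and 5 of 12 fell. Border macrophage and monocyte markers summed to 1365 to 1558 CPM in KO and 894 to 1316 CPM in APOE33 microglia, and 4 of 5 tested rose. Oligodendrocyte lineage markers summed to 175 to 205 and 207 to 311 CPM, with 4 of 10 lower and 1 of 10 at 0 in KO microglia. In astrocytes, microglia markers summed to 239 to 466 CPM in KO and 162 to 554 CPM in APOE33, and ependyma and choroid markers to 116 to 233 and 259.8 to 368 CPM, with 3 of 6 tested lower. Astrocyte markers summed to 12174 to 15721 CPM in KO astrocytes and 13348 to 18358 CPM in APOE33 astrocytes. Their part in the KO values of the members was not tested.

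In 2 of the 4 microglia groups most ATF4-branch members were highest in 1 library. In APOE33 microglia replicate 2 was the highest library for 6 of 10 members, Ddit3, Atf4, Atf3, Trib3, Asns and Chac1, and replicate 5 the lowest for Ddit3, Atf4, Trib3 and Chac1. In APOE44 microglia replicate 1 was the highest for 7, Hspa5, Xbp1, Ddit3, Atf4, Trib3, Asns and Chac1. In the other 2 microglia groups these members were divided. In WT microglia it was replicate 1 for Ddit3, Atf3 and Asns, replicate 3 for Atf4, Trib3 and Chac1, and in KO microglia it was replicate 2 for Ddit3, Trib3 and Chac1, 3 for Atf4, 4 for Asns and 1 for Atf3. In astrocytes the library that was highest for the most members was so for 6 of 10 in WT, 4 in APOE33, 3 in APOE44 and 5 in KO. The 6 in WT astrocytes were Dnajb9, Ddit3, Atf3, Asns, Chac1 and Sesn2, in replicate 2, so such grouping is not particular to microglia. How often each library was highest over all genes was not counted, so these counts only describe the members. Trib3 spread 5.08 to 11.6 CPM over APOE33 microglia and 2.08 to 2.96 CPM over KO. The APOE33, APOE44 and KO libraries share a batch tag.

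**Figure D5:**
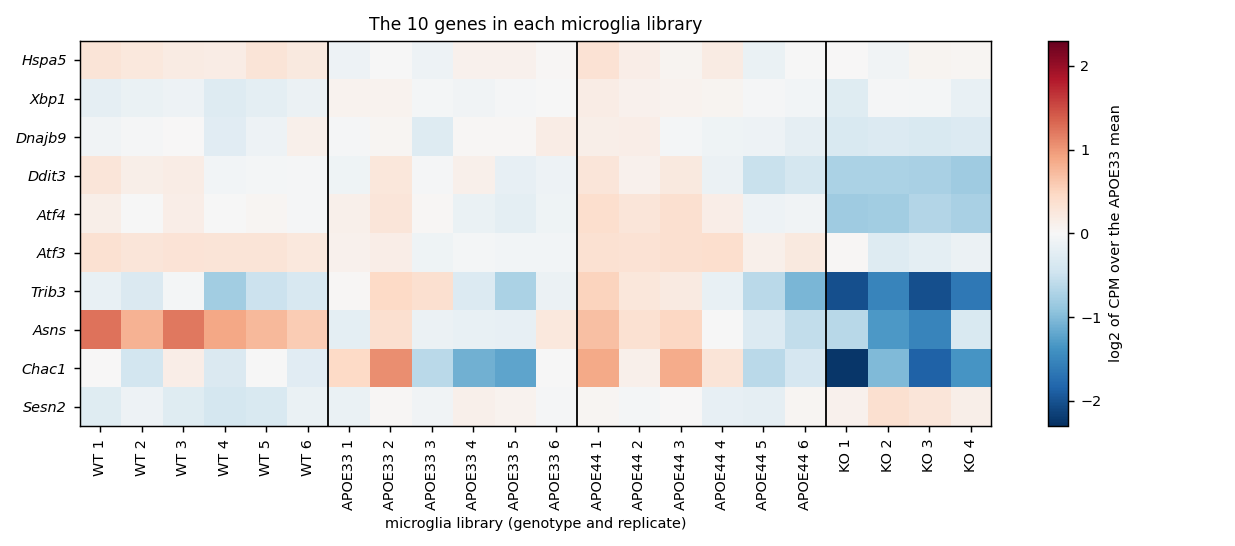
Level of each member (y axis) in each of the 22 microglia libraries (x axis, grouped by genotype), as log2 of its CPM over the member's mean in APOE33 microglia; red is higher than that mean and blue lower. KO libraries are blue for Ddit3, Atf4, Trib3, Asns and Chac1 and light red for Sesn2, and WT libraries are red for Asns.

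The genes whose levels followed Hspa5 and Asns most closely were found by Pearson correlation of log2 CPM over the 16 batch 1 libraries of a cell type, which share batch and genotype differences, so the values describe these libraries only. In astrocytes, 10167 genes were ranked. Hspa5 went with Idh1 (r = 0.946), Fbln5 (0.940), Dnajb11 (0.939), Tasp1 (0.915) and Sgk1 (0.915). Dnajb11, an ER co-chaperone that works with Hspa5, was the 1 gene of these 5 on the chaperone list. Asns went with Cacng7 (0.898), Atp9a (0.889), Btbd9 (0.858), Gpsm1 (0.857) and Tgfa (0.849), none of them on a pathway list. In microglia, 8560 genes were ranked. Hspa5 went with Arpc2 (0.855), Zfp35 (0.853), Nras (0.851), Plekhm3 (0.850) and Ankfy1 (0.846), and Asns with Uhrf1bp1l (0.926), Plk2 (0.923), C5ar1 (0.914), Pim1 (0.908) and Sqstm1 (0.906). For neither member did a gene stand among the 5 nearest in both cell types. The sets of genes ranked also differed between the cell types, so no conclusion is drawn from this.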

How the data were processed

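The values used are raw counts of reads per gene deposited by the authors, 54146 mouse genes by 44 libraries; per the labels' protocols the libraries were made with an unstranded kit and read as pairs of 150 bases. STAR 2.5.3a, featureCounts, edgeR 3.26.8 and DESeq2 3.14 are listed in the submitters' processing notes, whose only named build is hg38; the mouse build is not given in the sources used here. From 62.4% to 78.7% of counts between 1 and 9 were even, the pattern that counting each read of a pair on its own would give, so precision is lower than the counts alone imply. Symbols and positions came from GENCODE M21 (54079 identifiers matched, 52480 in the same version). CPM was computed from the deposited counts as count over library total; per-length values divide it by exon length.

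Tests were edgeR 4.0.16 quasi-likelihood fits in R 4.3.3 (TMM, filterByExpr, sex as a term) with Benjamini-Hochberg adjustment over all genes tested and a threshold of 0.05. Genotypes were fitted within cell type and batch 1, WT contrasts on the 22 libraries of a cell type, cell types and interactions on 32 libraries. The fits were tested on simulated data with 200 changed genes. Alternatives were DESeq2 1.42.0, library totals, no filter, no sex term, a replicate block, all 22 libraries, and each library left out. The members, the 10 pathway lists and the 9 marker lists (astrocyte, microglia, border macrophage and monocyte, oligodendrocyte lineage, neuron, endothelial, mural and meningeal fibroblast, ependyma and choroid, erythrocyte) were chosen with earlier results of these data known. Some pathway lists share genes besides Hspe1 and Hspd1, so their counts are not independent. Btg2 is an early gene and a p53 target, and Slc7a11 an integrated stress and an NRF2 gene. Eif2ak3 is in the eIF2alpha and sensor lists, and Dnajc3 in the eIF2alpha and chaperone lists. Named were all members, up to 3 called genes per list and comparison with the smallest adjusted p, and the 5 genes most correlated with Hspa5 and with Asns among those with a mean log2 CPM of at least 3. Markers of neurons summed to 0.443 to 1.70 CPM in KO microglia and 301 to 325 in KO astrocytes, endothelial markers to 164 to 253 and 8.23 to 16.2, mural and fibroblast markers to 31.3 to 63.7 and 166 to 357, and erythrocyte markers to 0.0504 to 0.112 and 0.139 to 0.314. In APOE33 microglia and APOE33 astrocytes neuron markers summed to 0.478 to 7.57 and 224 to 325 CPM. Endothelial markers there summed to 131 to 178 and 12.0 to 28.4 CPM, and mural and fibroblast markers to 62.6 to 127 and 330 to 431 CPM. Promoter sequences are from RefSeq.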

Additional observations from a re-analysis of the deposited data

Results flagged for a closer look

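The change in KO against APOE33 differed between the cell types for 4 members by the interaction test in edgeR: Trib3 (-1.71, microglia minus astrocytes, log2), Asns (-1.35), Ddit3 (-0.81) and Atf4 (-0.46). Asns is the 1 of these that was called in opposite directions, higher in KO astrocytes and lower in KO microglia; the microglia call was lost without any 1 of 7 libraries, while the difference was kept in every alternative run. Trib3 and Ddit3 were called in microglia only, and Atf4 was lower in both cell types.

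Atf3 in astrocyte KO replicate 4 stood at 6.62 CPM, apart from the other 3 KO libraries at 5.48 to 5.56 CPM; the gap was 0.926 of the range. It was the only such library in 80 tests, 1 for each of 10 members in 8 groups, where chance gives about 1 in 20.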

How the results depend on the processing

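Of 66 counts of members called under other settings, 64 stayed within 1.5 times the reported count. The exceptions were astrocytes against WT, 4 members reported and 2 with a replicate block, and the interaction of APOE44 against APOE33, 0 reported and 1 with DESeq2. Of 660 single-member values 635 kept direction and side of the threshold, 9 lost their call, 11 gained one and 5 changed sign; the cause was not tested. The sign changes were Dnajb9 in astrocyte KO against APOE33 (-0.013 without the sex term, -0.055 with the replicate block), Trib3 there (0.027 with the block), Ddit3 in microglia against astrocytes in batch 1 (-0.22 with totals) and Sesn2 in the KO interaction (0.0088 with DESeq2). Leaving out 1 library at a time gave counts of 1 to 1 member in astrocyte APOE44 against APOE33, 3 to 5 in KO against APOE33, 0 to 2 in KO against APOE44 and 2 to 4 against WT. In microglia these were 1 to 1, 4 to 7, 7 to 9 and 7 to 7. They were 10 to 10 and 9 to 9 between cell types in batch 1 and WT, and 0 to 1 and 4 to 5 in the interactions of APOE44 and KO. Of 1960 single-member values with a library left out, 44 lost a call, 18 gained one and 57 changed sign.

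Members whose log2 change crossed 0, none of them called, ranged in astrocytes as follows. In APOE44 against APOE33 Dnajb9 ran from -0.10 to 0.0066 and Ddit3 from -0.090 to 0.039. In KO against APOE33 Dnajb9 ran from -0.042 to 0.040 and Trib3 from -0.20 to 0.0048. In KO against APOE44 Atf3 ran from -0.082 to 0.037 and Trib3 from -0.079 to 0.22, and against WT Chac1 from -0.054 to 0.019. In microglia APOE44 against APOE33 gave -0.078 to 0.035 for Dnajb9, -0.12 to 0.024 for Ddit3 and -0.24 to 0.047 for Trib3. KO against APOE33 gave -0.13 to 0.023 for Atf3, and KO against APOE44 -0.065 to 0.062 for Hspa5. The interaction of APOE44 gave -0.026 to 0.097 for Dnajb9, -0.087 to 0.057 for Ddit3 and -0.10 to 0.34 for Trib3, and that of KO -0.10 to 0.059 for Sesn2.

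Replicate numbers are shared between groups, but did not meet the bar for pairing: across genotypes the median correlation of same-numbered libraries was -0.04. Astrocyte and microglia libraries of 1 number correlated at a median of 0.295, against -0.19 for other numbers, with 20 of 22 over 0.1 and all 22 pairs of the same sex, but 7 of 22 astrocyte libraries matched their own number best. The labels do not say whether such pairs share a source, and these values do not settle it. The main fits over both cell types treat the libraries as separate, and only the replicate block pairs them. With the block Hspa5 in astrocyte KO against APOE33 had adjusted p = 0.0554, Dnajb9 in microglia KO 0.0684 against APOE33 and 0.0717 against APOE44, and in astrocytes against WT Ddit3 had 0.0729 and Trib3 0.0557. The block also called Trib3 in microglia against WT, at -0.37 with adjusted p = 0.019. Depth limits Chac1 in microglia most, with 16 to 38 counts per KO library.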
